A study of Caenorhabditis elegans with 2 samples.

Results

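The sites described here are 379 entries of a ChIP-seq list for UNC-62 in Caenorhabditis elegans whose summits lay in coding exons away from promoters. The list holds peaks and background together, as input for a cut at an irreproducible discovery rate (IDR). Just 1 of the 379 was in the authors' list after that cut, so a site here means a listed entry and not an established binding site. ChIP-seq sequences the DNA recovered with a protein, and a summit is the middle of a listed interval. The sites were chosen by the signal value of the list that the authors called on pooled replicates, where 15 or more was required, and by position. The summit had to lie in an annotated coding sequence of a protein-coding gene and over 1 kb from the 5′ end of every protein-coding gene. Of all 30000 pooled entries, 6127 had a signal of 15 or more (20.4%), and of the 2661 entries in such distal coding exons 379 did (14.2%). Because the signal chose the sites, their signal and their standing in the replicates are given as a description.

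The animals were whole L1 larvae of mixed sex, the first larval stage, of strain OP600. Per the labels, the strain carried the mutation unc119(ed3) and the integrated transgene wgIs600, in which unc-62 was joined to the tags TY1, EGFP and FLAG and which also carried unc119 as a rescue gene. There were 2 biological replicates in 1 group and no other strain or condition, so there was no comparison between groups. The labels name UNC-62 in the antibody field and eGFP in the description. Whole animals hold all larval tissues, so a site used in few cells and a weakly occupied site cannot be told apart.

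UNC-62 is a homeodomain protein of the Meis class, a branch of the TALE family. Proteins of this class bind DNA together with Pbx-class partners, CEH-20 in this animal, and with Hox proteins, and UNC-62 is known for roles in embryonic patterning, neuroblast migration and, in the adult intestine, vitellogenin expression. Most worm regulatory elements that have been studied lie upstream of genes or in introns, while a coding exon must also keep its reading frame. The start of a shorter transcript can lie inside the coding sequence of a longer one, and a start of this kind was not used in choosing the sites.

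The 6 strongest sites on chromosomes II to X show what sequence these summits lie in. Each line gives up to 50 bases on each side of the summit, on the plus strand of ce11, with coding bases in capitals, and the F19H6.6 line stops at the last coding base before the stop codon.
hif-1, chrV:20781880-20781980: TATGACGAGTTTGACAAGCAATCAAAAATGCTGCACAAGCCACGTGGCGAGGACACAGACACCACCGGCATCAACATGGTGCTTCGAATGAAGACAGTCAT
saeg-1, chrV:10860767-10860867: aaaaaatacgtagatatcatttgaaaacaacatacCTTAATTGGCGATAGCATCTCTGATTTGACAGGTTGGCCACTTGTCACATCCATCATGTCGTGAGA
com-1, chrIII:10900539-10900639: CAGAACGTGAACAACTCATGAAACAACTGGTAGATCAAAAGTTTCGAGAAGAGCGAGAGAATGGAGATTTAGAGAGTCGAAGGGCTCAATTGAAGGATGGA
F19H6.6, chrX:12363033-12363099: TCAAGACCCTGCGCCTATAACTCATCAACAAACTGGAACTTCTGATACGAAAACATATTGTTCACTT
mak-1, chrII:8745855-8745955: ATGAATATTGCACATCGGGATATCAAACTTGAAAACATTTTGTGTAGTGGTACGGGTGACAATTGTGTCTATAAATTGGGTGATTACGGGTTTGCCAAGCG
cyp-34A10, chrV:3971778-3971878: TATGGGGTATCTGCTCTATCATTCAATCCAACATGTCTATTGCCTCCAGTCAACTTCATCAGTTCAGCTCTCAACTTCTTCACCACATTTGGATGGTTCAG
The windows of hif-1, com-1, mak-1 and cyp-34A10 were coding throughout. That of saeg-1 held 66 coding bases and ran into an intron, and that of F19H6.6 was printed for its 67 coding bases.

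The strongest site lay in hif-1, which encodes the hypoxia-inducible factor, on chromosome V (20781762 to 20782097). The pooled signal of 37.9 placed it at rank 84 of the pooled list, and the replicate entries had 18.5 and 17.7. It was the 1 site of the 379 that was itself a peak of the authors' list cut at an irreproducible discovery rate (IDR), and the 1 site that ranked among the first 500 in both replicates. The same counts for entries at other positions are not given. Whether coding exons are poorer in such entries than other sequence therefore cannot be told from these counts. The summit was in coding exon 4 of 9, 1523 bp from the gene's 5′ end and 542 bp upstream of the start of a shorter hif-1 transcript. It was coding in 5 of the 6 annotated transcripts.

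The second site lay in saeg-1, a gene named as a suppressor of activated EGL-4 kinase, on chromosome V (10860649 to 10860984). Its pooled signal was 33.1, with 12.6 in replicate 1 and 18.8 in replicate 2. Its summit was 4882 bp from the gene's 5′ end but 41 bp downstream of the start of a shorter saeg-1 transcript. The site of K10D3.4 on chromosome I (7135453 to 7135788) had a pooled signal of 29.0, with 12.2 and 14.2 in replicates 1 and 2. These 3 sites stood in the upper part of both replicate lists.

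The site in com-1, which acts in meiotic double-strand break repair, had a pooled signal of 26.2 on chromosome III (10900421 to 10900756), with 9.10 in replicate 1 and 13.2 in replicate 2. It lay 2052 bp upstream of the 5′ end of unc-119, the gene used for rescue on the transgene, and the part of extra copies in its signal was not tested. No other of the 379 sites lay within 20 kb of unc-119, and 0 lay within 20 kb of unc-62. The site in sptf-3, a gene for an Sp-family zinc finger factor, had a pooled signal of 26.1 with 17.5 in replicate 2 and no entry in replicate 1. F19H6.6, in its last coding exon, had 25.1 pooled, 10.4 in replicate 1 and 16.5 in replicate 2. With these, 6 of the 379 sites reached a pooled signal of 25, against 420 of the 6127 entries of 15 or more in the whole list.

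The next sites fell off slowly, from 24.4 for mak-1 to 22.5 for Y53G8AM.8, the twentieth. The kinase gene mak-1 (chromosome II, 8745737 to 8746072) was even between replicates, with 10.6 and 11.2. The cytochrome P450 gene cyp-34A10 had 24.2 pooled, and rsd-2, needed for systemic RNA interference, had 23.9 pooled with 15.9 in replicate 2 and no entry in replicate 1. Y54G2A.73 (23.8) was listed at 9.99 and 9.76 in replicates 1 and 2, and Y65A5A.2 (23.8) at 12.8 and 7.16. Both nuclear receptor gene nhr-288 (23.5) and hexosaminidase gene hex-3 (23.1) were above 10 in each replicate, as was F38A5.2 (22.8).

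The remaining genes of this group leaned to 1 replicate. The chemoreceptor gene srxa-12 (23.3) had 13.8 in replicate 1 and 9.19 in replicate 2, and the carboxylesterase gene cest-7 (23.0) had 13.4 and 5.73. The acetylcholine-gated channel gene acc-3 (22.6) had 15.1 and 5.65. F57G12.2 (22.7) leaned the other way, with 5.83 in replicate 1 and 14.9 in replicate 2, as did ZC190.5 (22.6), with 5.72 and 14.7. Y53G8AM.8 had 9.65 and 13.2. Of the 20 strongest sites, 2 had no entry in replicate 1 and all were listed in replicate 2.

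**Figure D1:**
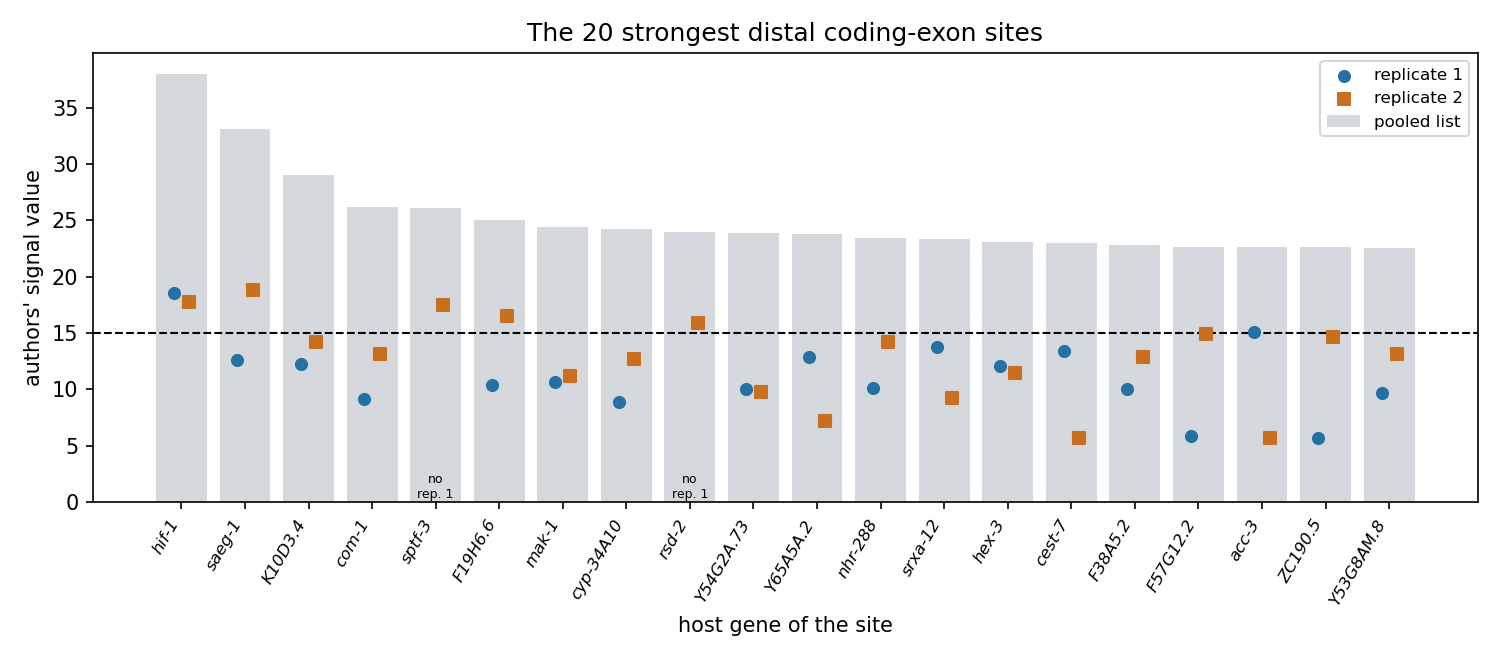
Signal values of the 20 strongest distal coding-exon sites, by host gene in order of pooled signal. Grey bars give the pooled list, circles replicate 1 and squares replicate 2, and the dashed line marks the pooled threshold of 15. hif-1 stands highest at 37.9, and sptf-3 and rsd-2 have no replicate 1 entry.

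The signal of the 379 sites had a median of 16.8 (quartiles 15.8 and 18.3), and 55 reached 20. Just inside the threshold lay mec-1, an extracellular protein gene of touch neurons (15.015), M57.2 (15.004) and gcy-12, a guanylyl cyclase gene (15.004). Just outside lay Y37E3.17 (14.999), rabx-5 (14.983) and Y73B6BL.31 (14.976). The ranks of these 6 entries in the pooled list ran from 6102 to 6172.

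Most of the sites had a counterpart in each replicate, but few were strong in both. An entry was counted as listed when a replicate entry overlapped it by at least 1 bp, and the strongest such entry was used. Of the 379 sites, 298 were listed in replicate 1 (78.6%, exact 95% binomial interval 74.2 to 82.6%) and 316 in replicate 2 (83.4%, interval 79.2 to 86.98%). Both listed 236 (62.3%), and 1 site was in neither. Distal coding-exon entries under 15, which the same pooled signal set apart, were listed in both in 17.7% of 2282 cases. Among entries of 15 or more, both replicates listed 64.3% of distal intronic ones and 67.3% of those within 1 kb of a 5′ end. Being listed in both was thus not particular to coding exons. These intervals cover counting error only, and regions are not biological replicates.

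An entry was taken as strong in a replicate when it ranked among its first 6127, the number at or above 15 in the pooled list. By this measure 138 sites were strong in replicate 1 (36.4%), 157 in replicate 2 (41.4%), 26 in both (6.86%, interval 4.53 to 9.89%) and 110 in neither (29.0%). Among distal intronic entries of 15 or more, 178 of 1587 were strong in both (11.2%, interval 9.70 to 12.9%). Among entries of 15 or more within 1 kb of a 5′ end, 394 of 2392 were (16.5%). The pooled signals of these groups ran higher, with upper quartiles of 19.4 and 20.2 against 18.3 for the sites. Shares at matched signal were not taken, so position and signal cannot be told apart here. When the replicate summit also had to lie within 100 bp of the pooled summit, 16 coding-exon sites were strong in both (4.22%). Of the 55 sites at 20 or more, 20 were strong in both, against 6 of the 324 sites from 15 to 20.

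The replicate signals were added and set against the pooled signal that chose the sites. Across the 236 sites listed in both, that sum was a median of 99.4% of the pooled signal (quartiles 91.6 and 105%), and it was 98.3% in distal intronic entries of 15 or more. In distal coding-exon entries under 15 it was 116.4% (quartiles 104.5 and 135.7%). For scale, the median signal of a whole replicate list was 7.05 in replicate 1 and 7.22 in replicate 2. At the 236 sites the stronger replicate exceeded the weaker by a median of 1.38-fold, and by over 2-fold at 26 (11.02%). Sites with an entry in only 1 replicate have no such value and were left out. The share over 2-fold was 2.96% in coding entries under 15, 11.7% in distal intronic entries of 15 or more and 16.9% in entries of 15 or more within 1 kb of a 5′ end. In the coding entries under 15 the lowest listed signals were 5.18 in replicate 1 and 5.33 in replicate 2. Since only entries listed in both are used, this floor raises the sum and limits the fold of weak entries. Their values are therefore no measure of closer replicates. Replicate 2 was the higher at 124 of the 236 sites (52.5%).

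Some of the highest values of a single replicate had no match in the other. Of the 18 sites within the first 500 of replicate 1, 10 had no entry in replicate 2, and of the 11 within the first 500 of replicate 2, 6 had no entry in replicate 1. The same share over all first 500 entries of each replicate is not given. Whether these sites differ from other entries in this cannot be told. The highest of them in replicate 1 were C08D8.1 (signal 19.9), chtb-2 (18.003), enpl-1, an endoplasmin chaperone gene (17.1), and F23D12.10 (15.9). In replicate 2 they were the polyketide synthase gene pks-1 (18.2), F08G12.5 (18.04), C18H7.11 (17.5) and sptf-3 (17.5). Except for sptf-3, these genes were named after their values were seen.

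The entries of the replicate lists were also chosen without the pooled list, by the same number of strongest entries. This gave 438 distal coding-exon entries in replicate 1 and 440 in replicate 2, of which 18 met each other (4.11% and 4.09%). A strong entry of any class in the other replicate met 30 of the 438 (6.85%) and 32 of the 440 (7.27%). The same shares were 11.9% and 13.4% for distal intronic entries and 14.8% in both directions for all 6127 strong entries.

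**Figure D2:**
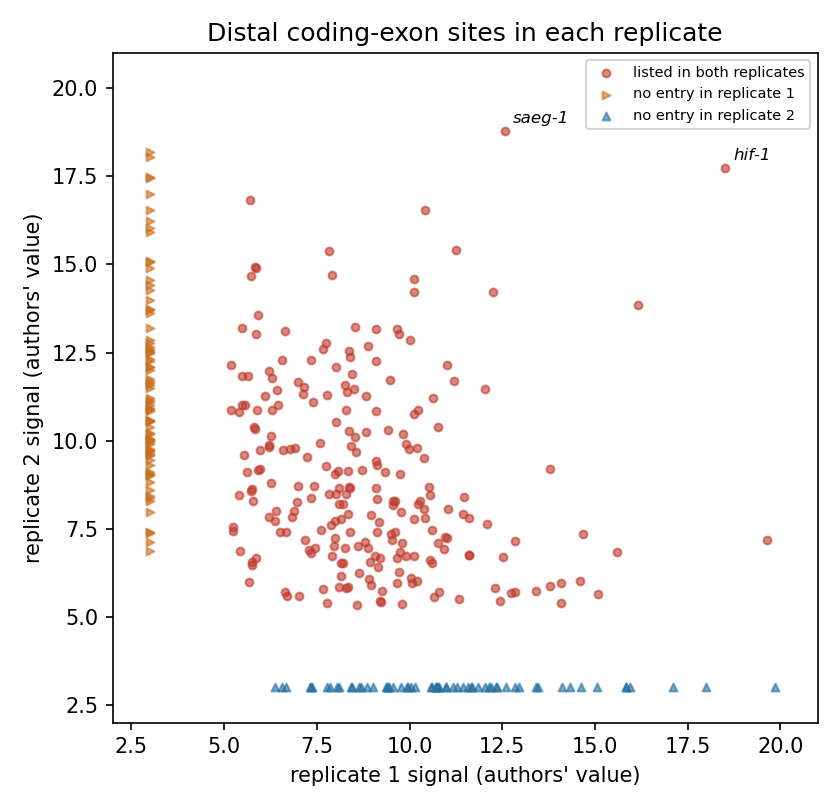
Signal of the distal coding-exon sites in replicate 1 (x axis) and replicate 2 (y axis), as the authors' values. Dots are the sites listed in both (236), of which dhc-4, at 13.2 and 27.2, lies above the y axis and is not shown. Triangles at a fixed position of 3 on an axis mark sites with no entry in that replicate. hif-1 lies at 18.5 and 17.7, and most other dots lie below 12.5 in both.

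Distal coding exons held fewer strong entries than other distal sequence, both per entry and per base. They made up 22.2% of all bases over 1 kb from a gene 5′ end, 13.9% of the 19126 entries there and 10.1% of the 3735 entries of 15 or more. The share of entries at 15 or more was 14.2% (interval 12.9 to 15.6%), against 19.8% in introns (interval 18.96 to 20.7%) and 21.2% in intergenic sequence (interval 20.3 to 22.1%). Per megabase there were 26.1 such entries in distal coding exons, 66.2 in introns and 65.8 in intergenic sequence. The median signal was 11.3 over all distal coding-exon entries and 11.9 in introns. In each replicate list alone coding exons were also below introns, where 15.1% of distal coding-exon entries and 20.9% of intronic entries of replicate 1 were strong, and 14.6% and 19.1% of those of replicate 2.

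**Figure D3:**
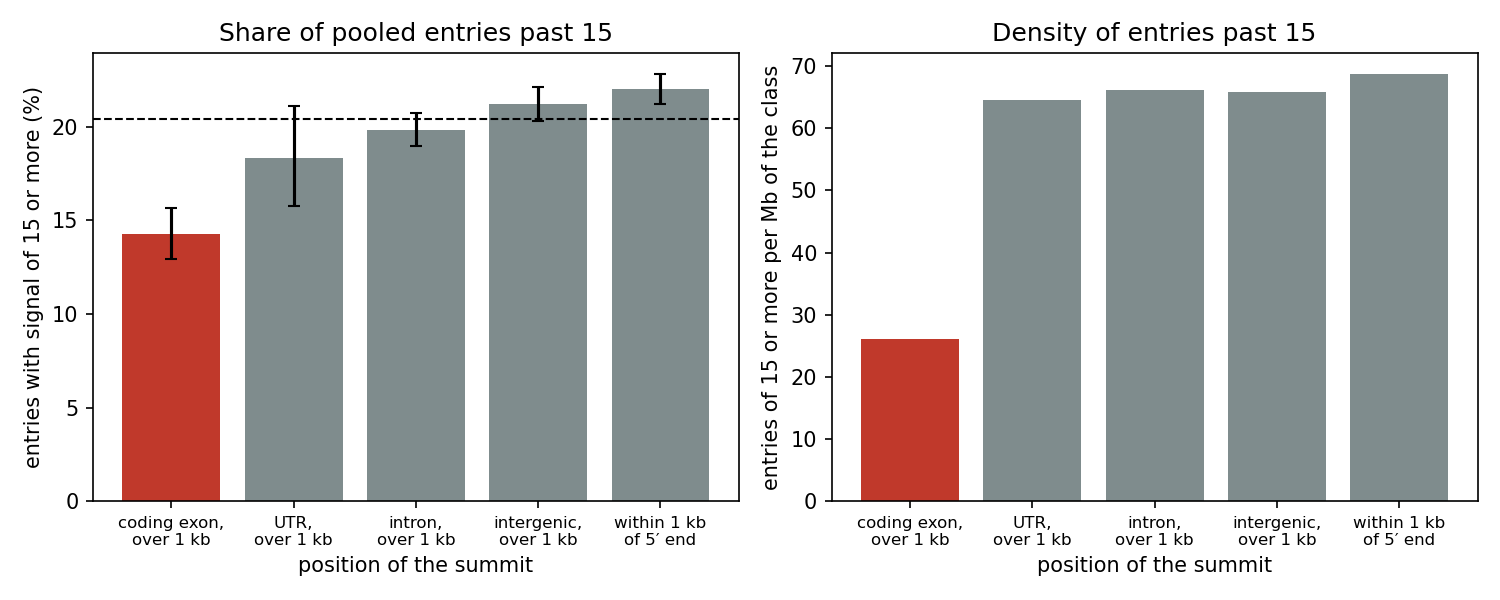
Left, share of pooled entries with a signal of 15 or more by position of the summit, with exact 95% binomial intervals, and the dashed line at the 20.4% of all entries. Right, number of such entries per megabase of each class. Distal coding exons are lowest in both, at 14.2% and 26.1 per megabase.

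No gene stood out by its number of sites. The 379 summits fell in 374 genes, of which 5 held 2 sites and 0 held 3 or more, and no summit had another of the sites within 1 kb. The pairs lay in H05C05.1 (21.8 and 17.4, 2234 bp apart), Y53G8AM.8 (22.5 and 19.4, 1051 bp apart), the sodium-proton exchanger gene nhx-5 (20.6 and 18.3, 1769 bp apart), smg-6, a nonsense-mediated decay gene (17.5 and 16.7, 3039 bp apart), and C14B9.3 (15.7 and 15.05, 1217 bp apart). These 5 were named after the counts were seen, since no gene met the planned number of 3.

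Within their genes the sites lay mostly in internal exons past the middle. Of the 379, 313 were in an internal coding exon (82.6%), 61 in the last (16.1%) and 5 in the first (1.32%), a distribution that the 1 kb rule shapes. Of the entries under 15, 82.5% were internal and 15.1% last. The median summit lay 63.5% of the way along its gene, in a gene of 4973 bp, against 64.1% and 4966 bp for entries under 15. The median coding exon was 217 bp long (quartiles 144 and 355), against 246 bp under 15, and the summit was a median of 50 bp from the exon's edge. The entries are 336 bp wide, so a median of 67.3% of each was coding, and 33 were coding throughout (8.71%, interval 6.07 to 12.01%), against 14.3% of entries under 15 (interval 12.9 to 15.8%). Most of the sites therefore hold non-coding sequence beside the exon.

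Starts of shorter transcripts lay near some of the strongest sites, and the shares of sites and of entries under 15 near a start had overlapping intervals. A transcript 5′ end lay within 1 kb of 57 summits (15.04%, interval 11.6 to 19.04%), against 337 of 2282 entries under 15 (14.8%, interval 13.3 to 16.3%), and in 54 of the 57 the transcript was one of the host gene. In the list of replicate 1 alone the shares were 11.2% of strong and 14.5% of weaker distal coding-exon entries, and in that of replicate 2 they were 15.2% and 14.8%. Within 250 bp the shares of the pooled entries were 6.33% and 6.53%. At 20 or more, 10 of 55 summits had such a start (18.2%, interval 9.08 to 30.9%). Besides saeg-1, the Y65A5A.2 summit lay 93 bp downstream of a start of its gene, that of mak-1 404 bp downstream, and that of cest-7 8 bp upstream. Where the host gene had several transcripts, the summit was coding in all of them in 134 of 209 cases (64.1%, interval 57.2 to 70.6%), against 70.4% under 15 (interval 67.7 to 73.04%).

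**Figure D4:**
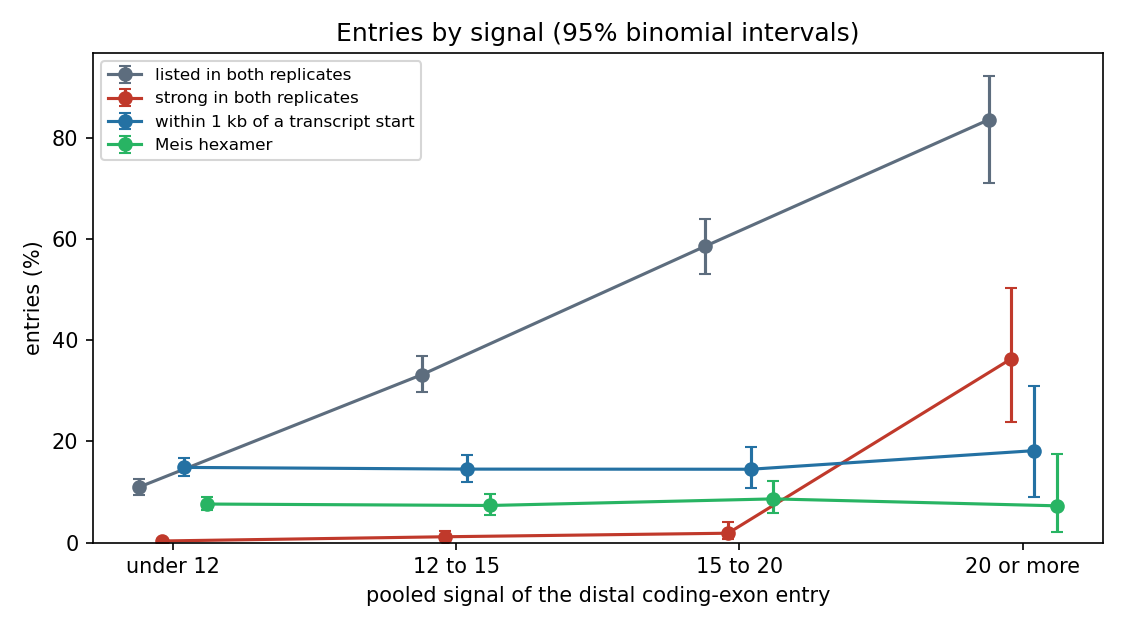
Share of distal coding-exon entries with 4 properties, by pooled signal, with exact 95% binomial intervals. The shares listed in both replicates and strong in both rise with the pooled signal, to 83.6% and 36.4%, while the shares near a transcript start and with the Meis hexamer stay between 14.5 and 18.2% and between 7.27 and 8.64%.

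Genes of small structured RNAs lay beside 9 of the sites. A tRNA, snRNA, snoRNA, rRNA or microRNA gene was within 300 bp of 9 summits (2.37%, interval 1.09 to 4.46%), against 9 of 2282 entries under 15 (0.394%, interval 0.180 to 0.747%). Beside the entries under 15 were 1 tRNA, 2 snRNA, 4 snoRNA and 2 microRNA genes. Of the 55 sites at 20 or more, 1 had a gene of these types. For any non-coding gene the shares of sites and of entries under 15 were 7.92% and 5.43%, with overlapping intervals. Shares for strong entries at other positions are not given. Whether the difference is particular to coding exons cannot be told. The host genes below were named after these counts were seen. The RNA genes at the 9 sites comprised 5 tRNA genes, beside fli-1, ZC449.2, lelo-2, cye-1 and C14B9.3. There were also 3 genes annotated as snRNA, beside dhc-4, srz-85 and F58G1.7, and 1 snoRNA gene beside srx-88. All 31-base words of these 9 windows occurred once in the genome.

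The dynein heavy chain gene dhc-4 held the strongest of these, with a pooled signal of 20.4 at 91 bp from an snRNA gene (chromosome III, 10989703 to 10990038). The replicate entries that met it ranked 790 in replicate 1 and 82 in replicate 2, but their summits were 278 and 210 bp away. Its interval overlapped an IDR peak other than its own, and a stronger pooled entry lay within 1 kb. At cye-1, the cyclin E gene, 123 bp from a tRNA gene, the pooled signal was 16.3 and the ranks were 180 and 1016, with the replicate 1 summit 237 bp away. The sites of dhc-4, lelo-2 and cye-1, 3 of these 9, had a stronger pooled entry within 1 kb, as did 14 of the 379 sites in all (3.69%). The part of neighbouring entries and of the small RNA genes in these signals was not tested.

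The sites were richer in G and C than strong intronic entries. Windows of 100 bp on each side of the summits had a median GC content of 38.3% (quartiles 34.8 and 42.8), against 38.8% for distal coding-exon entries under 15 (quartiles 35.3 and 43.3). Distal intronic entries of 15 or more had 30.3%, and entries of 15 or more within 1 kb of a 5′ end had 33.8%. Repeated sequence was rare, with 11 windows that held a 31-base word found elsewhere in the genome (2.90%), against 3.77% of distal coding-exon entries under 15 and 12.4% of distal intronic entries of 15 or more. Just 1 of the 11 also held a repeated 50-base word. It was the window of prmt-9, named after its value was seen, where 51.5% of 31-base words were unique.

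Motifs were searched on both strands of the same windows, and a match is only a run of letters. The Meis hexamer TGACAG was in 32 of the 379 windows (8.44%, interval 5.85 to 11.7%). It was in 7.54% of distal coding-exon windows under 15 (interval 6.49 to 8.70%), in 6.30% of distal intronic windows of 15 or more and in 6.40% of all 30000 windows. Strong distal coding-exon entries of a single replicate list were on the other side of the weaker ones, with 6.16% against 7.17% in replicate 1 and 6.82% against 7.99% in replicate 2. The shorter Meis core TGACA, which every hexamer also contains, was in 36.1% against 38.0% under 15 and 32.4% of all windows. The Hox-Pbx motif TGATNNAT was in 18.5% against 18.8% and 15.4%. The intervals of the sites and of the entries under 15 overlapped for each of these motifs.

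The intervals also overlapped for the other motifs, of which the GATA motif TGATAA was in 21.1% of the windows (interval 17.1 to 25.6%), against 18.1% under 15 and 18.3% of all windows. The GAGA repeat GAGAGA was in 8.97% (interval 6.29 to 12.3%), against 10.4% under 15, 13.4% of distal intronic windows of 15 or more and 10.8% of all windows. GACGCA was in 4.49% against 4.16% under 15 and 4.37% of all windows, and GCGCGA in 1.85% against 1.31% and 2.24%. In windows of 15 or more within 1 kb of a 5′ end these last were in 7.57% and 4.43%.

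**Figure D5:**
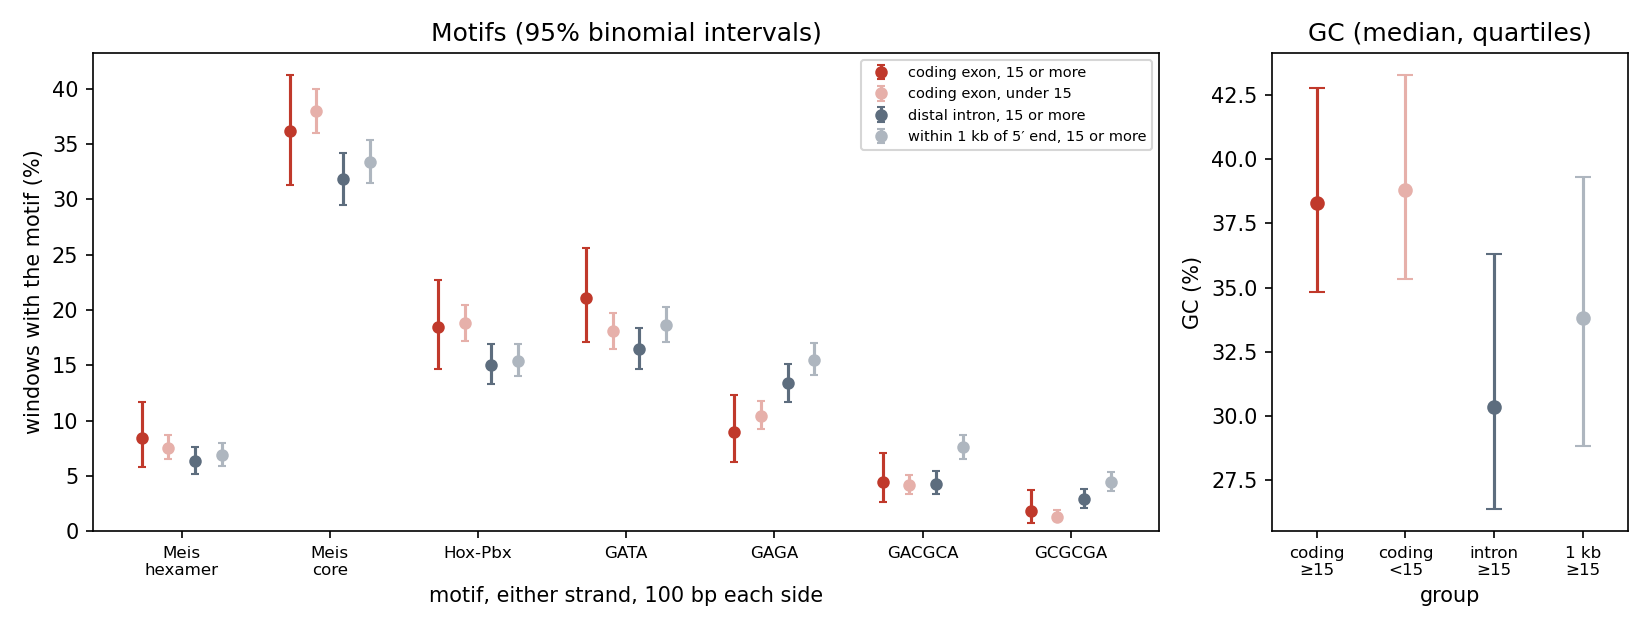
Left, share of windows of 100 bp on each side of the summit that held each motif in 4 groups of entries, with exact 95% binomial intervals. Right, median and quartiles of their GC content. Distal coding-exon sites of 15 or more and those under 15 lie together at 38.3 and 38.8% GC, above distal introns at 30.3%.

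The 3 strongest sites with the Meis hexamer on chromosomes II to X are printed to show where it fell in coding sequence. Each line is on the plus strand of ce11, with the hexamer or its reverse complement in capitals.
saeg-1, chrV:10860801-10860860: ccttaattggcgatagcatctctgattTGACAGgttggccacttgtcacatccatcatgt
C18H7.11, chrIV:598501-598560: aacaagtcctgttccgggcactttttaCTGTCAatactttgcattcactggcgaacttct
pat-9, chrX:16539336-16539395: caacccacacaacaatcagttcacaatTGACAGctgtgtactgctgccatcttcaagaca
In each of them the hexamer was wholly within coding sequence, and the distance from the summit to base 3 of the hexamer was 13 bp in saeg-1, 42 bp in C18H7.11 and 66 bp in pat-9. C18H7.11 had a pooled signal of 22.1 and no replicate 1 entry. The gene pat-9 encodes a zinc finger protein required in body wall muscle, and its site (21.1) had 8.31 in replicate 1 and 11.4 in replicate 2.

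Genes in 10 lists of known function were counted as hosts. Over all 2308 genes with a distal coding-exon entry, 374 held one of 15 or more (16.2%). Among muscle contractile and attachment genes it was 1 of 14, the titin gene ttn-1 (15.6), with rank 1620 in replicate 1 and no entry in replicate 2. Among synapse and neuronal transport genes it was 2 of 12, the active zone gene cla-1 (22.4) and the axonal growth gene unc-76 (20.5). Among adhesion and guidance genes it was 3 of 12, the netrin receptor gene unc-40 (17.2), the cadherin gene cdh-5 (16.4) and unc-73 (15.9), which encodes a guanine nucleotide exchange factor.

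The epidermis and cuticle list had 1 of 6, the spectraplakin gene vab-10 (19.5), whose summit lay in an exon of 5874 bp. The chromatin list had 2 of 15, cbp-1 (16.4), of the CBP and p300 acetyltransferase family, and utx-1 (15.3), a histone demethylase gene. The counts were 0 of 6 for basement membrane and matrix, 0 of 9 for polymerase and splicing subunits, 0 of 2 for translation elongation and chaperones, 0 of 1 for Hox and TALE homeobox genes and 0 of 1 for vitellogenin genes. Lists of this size can show little at a share of 16.2%, and no list was tested.

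Large gene families were counted by name after the hosts were seen. Chemoreceptor genes with sr or str names held a site in 14 of 93 cases (15.1%, interval 8.48 to 24.0%), led by srxa-12. Nuclear receptor genes did in 3 of 41 (7.32%, interval 1.54 to 19.9%), cytochrome P450 and UDP-glucuronosyltransferase genes in 4 of 24, F-box genes in 4 of 18 and C-type lectin genes in 0 of 14. Of 78 ribosomal protein genes, 0 had any distal coding-exon entry, so they could not be counted.

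The sites were spread over all 6 chromosomes. The share of distal coding-exon entries at 15 or more ran from 13.2% on chromosome II (interval 9.89 to 17.2%) to 15.6% on X (interval 12.3 to 19.3%). Chromosome V held the most sites, 72, and chromosome II the fewest, 47. These 2 also held the most and the fewest distal coding-exon entries, 509 and 355. The X chromosome held 69 sites (18.2%, interval 14.5 to 22.5%), against 16.4% of the entries under 15 and 16.9% of distal intronic entries of 15 or more. Over the whole list it held 1134 of the 6127 entries of 15 or more and 5390 of all 30000.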

How the data were processed

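UNC-62 ChIP-seq peak lists of 2 biological replicates were used as deposited in build ce11. The deposited signal value per entry is the authors' own, made with a control file per the deposited listing, and was used to rank, filter and describe entries. The pooled list is the one labelled as peaks and background for input to IDR. The pooled and replicate lists each hold 30000 entries, 336 bp wide (370 bp in replicate 1). Aligner, peak caller and IDR cutoff are not given in the sources used here, and read depth is unknown. Lists in ce10 were not used.

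Genes came from Ensembl release 115 and sequence from RefSeq, both WBcel235, the assembly of ce11. Coordinates are 1-based. The text names hosts of the 20 strongest sites, sites beside the threshold, list members, sites in the IDR list or among the first 500 of both replicates, and others as stated. Sites, motifs and lists were chosen with earlier results of these data known, and no test was made. The motif search was checked on simulated windows, the overlap function on shifted pooled entries and the position functions on annotated coding sequence. Alternatives changed the threshold, distance, window, overlap and list. Intervals are exact 95% binomial. Python 3.11.15, numpy 2.4.6, scipy 1.17.1, pandas 2.3.3 and matplotlib 3.10.9 were used.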

Additional observations from a re-analysis of the deposited data

How the results depend on the processing

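Of 47 alternatives for the sites' own values, 29 left a value within its interval or a count within 1.5 times and 18 moved it. These values are counts, shares and medians without a direction, so none could be reversed. Of the 47, 6 were chosen after seeing the data. The number of sites was 1074 with a threshold of 12, 55 with 20, 1 in the IDR list and 210 over 2 kb from a 5′ end; the share at or above the threshold was 40.4% at 12 and 2.07% at 20, as the thresholds fix. With summits within 100 bp, 65.7% of sites were listed in replicate 1 and 71.2% in replicate 2, and with the stricter overlap 73.1% and 78.4%; the share strong in both was 4.22% with summits within 100 bp. With 1 replicate left out, the share of sites within 1 kb of a transcript start ranged from 11.2% (replicate 1 alone) to 15.2%, the number of sites from 438 to 440, the share at or above the threshold from 14.6 to 15.1%, the hexamer share from 6.16 to 6.82%, the X share from 16.9 to 17.7% and median GC from 38.3 to 39.3%. The hexamer was in 4.22% of windows of 50 bp each side and 13.98% of whole entries, and median GC was 39.6% and 37.4% there, and 41.3% in the 26 sites strong in both. With words of 50 bases, 0.264% of windows held a repeat. Window length sets the motif shares; the cause of the other moves was not tested. The side of the sites relative to weaker distal coding-exon entries changed in single replicate lists: the hexamer was in 8.44% against 7.54% in the pooled list, 6.16% against 7.17% in replicate 1 and 6.82% against 7.99% in replicate 2, and the share near a transcript start was 15.04% against 14.8% in the pooled list and 11.2% against 14.5% in replicate 1. No paired analysis was possible because there was 1 group. Read depth is unknown, so the precision of a replicate's signal could not be given.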
